A study of Homo sapiens with 8 samples.

Results

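Of 63892 autosomal peaks of open chromatin that lay inside genes and more than 1 kb from any gene end, 4612 (7.22%) were gained after sorbitol. These gained inside peaks were chosen by their CPM, a peak's count per 1000000 counts of the library in all peaks. In each of them every sorbitol library lay above every vehicle library, and the mean CPM of the sorbitol group was at least 2 times that of the vehicle group. A peak was inside a gene when it overlapped a RefSeq gene of GRCh38.p14, of any kind. The whole table held 129536 peaks. The same limits of separation and fold took 7107 of all 124687 autosomal peaks (5.7%), with 446 of 24419 peaks at gene ends (1.83%) and 2049 of 36376 peaks between genes (5.63%). Because the CPM values chose the peaks, their rise is a description here and carries no test.

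The libraries came from HEK293 cells, a human embryonic kidney line, with the genotype eGFP-YAP, a version of the transcriptional coactivator YAP joined to a green fluorescent protein. The 4 vehicle libraries are the reference, and their library names mark the start time rather than 1 h. The 4 sorbitol libraries came from cells kept in 0.2 M sorbitol for 1 h. By these labels, an effect of sorbitol cannot be told apart from one of the 1 h itself. The series description adds 1 h of serum starvation before sorbitol, and the sample titles and library names give the parental line where the genotype field gives eGFP-YAP. How the eGFP-YAP allele was made, whether the line is 1 clone, and whether libraries of a group are separate cultures are not given in the sources used here, so p-values measure only the spread between these libraries, which may be technical.

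In the assay, Omni-ATAC-seq, a transposase cuts and tags DNA that is not wrapped tightly, so the number of tagged fragments in a region reflects how accessible it is. Accessible regions inside genes include enhancers, internal promoters and sites bound by architectural proteins, and long introns hold many of them. Sorbitol stays outside the cell and draws water out, and hyperosmotic stress of this kind is known to compact chromatin and to disturb transcription. In a bulk assay, a change in the share of cells with an open site and a change in how open it is in each cell cannot be told apart.

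Library totals in peaks ran from 11522266 to 19831471 counts, and the sorbitol libraries were the smaller group with 11522266 to 14355727. Pearson correlations of log2 CPM were 0.946 to 0.967 within groups and 0.908 to 0.925 between groups. Peaks on unplaced contigs, which are often rich in repeats, set vehicle 4 and sorbitol 4 apart: their median log2 deviation from all libraries was 0.35 in vehicle 4 against -0.30 to -0.07 in the other vehicle libraries, and -0.32 in sorbitol 4 against 0.08 to 0.29 in the other sorbitol libraries. The part of this difference in the results was not tested, and some of the results, though not all, are given with and without these libraries. Of the markers used to check the label, the kidney lineage genes LHX1 and EYA1 had an end peak of 14.6 and 2.11 CPM in vehicle cells, and PAX2 had none. ACTB and GAPDH, active in nearly all cells, had 61.0 and 88.0 CPM. CD3E (T cells), ALB (liver) and MYH1 (muscle) had no end peak, and PTPRC (blood) and PECAM1 (endothelium) had 1.16 and 1.20 CPM.

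The genes with 3 or more gained peaks are called host genes here. The DNA of 4 host gene starts is printed because the peaks there, which the rule leaves out, are set against the gained peaks of the same genes below. The stretches run from 250 bases before to 50 bases after the RefSeq start in GRCh38.p14, 5′ to 3′ on the gene's strand. PCDH9 (chr13:67230287-67230586, minus strand) had the most gained peaks, and its start peak did not pass the test. UTRN (chr6:144285085-144285384, plus strand) had a start peak that rose, and AGBL3 (chr7:134986258-134986557, plus strand) had one that fell. DST (chr6:56954781-56955080, minus strand) holds letters of 2 of the 4 motifs searched, which the capitals mark: CATTCC, the reverse complement of the TEAD letters GGAATG, and TGAGTCA of AP-1. Peak sequences are not printed, since no genome was used here.
PCDH9: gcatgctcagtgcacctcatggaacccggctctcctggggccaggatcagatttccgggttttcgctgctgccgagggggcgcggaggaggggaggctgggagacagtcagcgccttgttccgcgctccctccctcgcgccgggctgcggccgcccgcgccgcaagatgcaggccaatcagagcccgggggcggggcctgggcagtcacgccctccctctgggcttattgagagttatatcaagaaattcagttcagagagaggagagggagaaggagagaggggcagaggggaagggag
UTRN: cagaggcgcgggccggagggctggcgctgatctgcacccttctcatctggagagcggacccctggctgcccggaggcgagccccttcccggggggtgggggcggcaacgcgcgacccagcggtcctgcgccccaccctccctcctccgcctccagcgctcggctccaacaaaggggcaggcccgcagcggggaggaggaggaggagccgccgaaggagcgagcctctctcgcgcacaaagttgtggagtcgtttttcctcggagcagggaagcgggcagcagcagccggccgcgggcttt
AGBL3: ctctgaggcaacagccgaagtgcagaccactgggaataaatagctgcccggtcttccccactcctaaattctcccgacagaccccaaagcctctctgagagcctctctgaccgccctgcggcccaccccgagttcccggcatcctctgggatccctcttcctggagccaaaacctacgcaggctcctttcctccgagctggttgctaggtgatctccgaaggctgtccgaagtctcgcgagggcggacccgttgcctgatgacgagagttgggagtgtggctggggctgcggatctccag
DST: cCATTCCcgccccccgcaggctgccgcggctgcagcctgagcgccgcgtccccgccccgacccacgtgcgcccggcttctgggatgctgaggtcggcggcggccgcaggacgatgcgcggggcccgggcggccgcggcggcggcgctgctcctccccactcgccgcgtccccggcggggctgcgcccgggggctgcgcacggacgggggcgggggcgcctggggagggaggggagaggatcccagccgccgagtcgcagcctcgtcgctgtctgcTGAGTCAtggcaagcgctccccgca

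To see how the gained inside peaks behaved from library to library, their median CPM was taken in each. It was 0.920, 0.805, 0.908 and 1.08 in vehicle libraries 1 to 4 and 2.34, 2.23, 2.34 and 2.09 in sorbitol libraries 1 to 4. The groups do not overlap, as the rule requires, and the highest vehicle and lowest sorbitol median are those of the replicate 4 libraries. The 4612 peaks together took 0.509% to 0.601% of a vehicle library and 1.25% to 1.35% of a sorbitol library. The other inside peaks had higher medians, 2.59 to 2.71 CPM in vehicle and 2.79 to 3.04 CPM in sorbitol. Gained inside peaks were therefore weak regions, with a median of 14 to 18 counts in a vehicle library and 27 to 30 in a sorbitol library. In 2081 of them the lowest library held under 10 counts, and in 6 some library held 0.

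**Figure D1:**
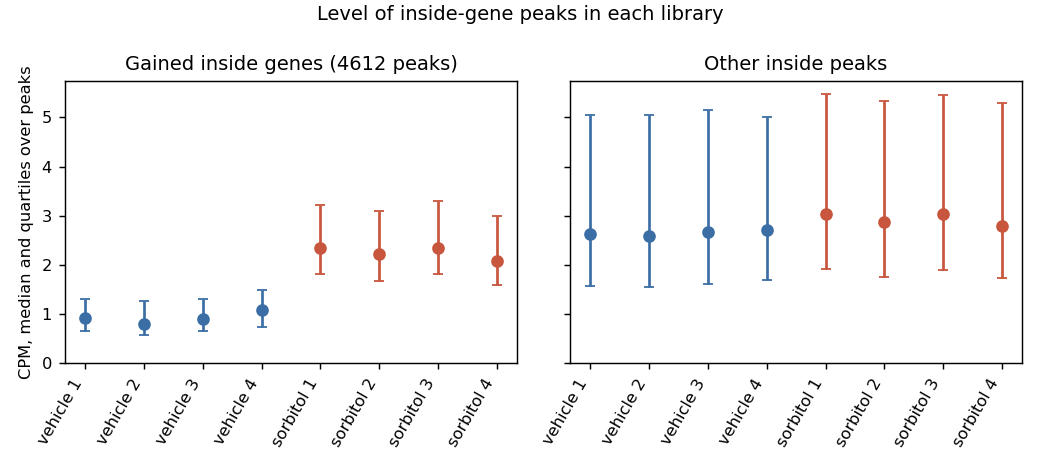
Median CPM over peaks in each of the 8 libraries, with bars from the lower to the upper quartile over peaks, for the 4612 gained inside peaks and for the other inside peaks. Gained peaks sit at 0.805 to 1.08 in vehicle and 2.09 to 2.34 in sorbitol libraries, below the 2.59 to 3.04 of the other inside peaks.

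The ratio of sorbitol to vehicle mean CPM had a median of 2.39 among the gained inside peaks, with quartiles of 2.17 and 2.72 and a highest value of 8.03. It reached 3 in 672 peaks (14.6%) and 4 in 86. Separation of the groups without the fold limit was met by 12929 inside peaks (20.2%), against 17.3% of all peaks in the table. The opposite pattern, separated and at least 2-fold lower after sorbitol, was found in 267 inside peaks (0.418%). Peaks at the limit differed little from each other. Just inside it were peaks in PCSK5 (0.935 ± 0.3004 to 1.87 ± 0.231 CPM, SD, n = 4), DST (0.957 ± 0.383 to 1.92 ± 0.381) and PLAC9 (1.44 ± 0.425 to 2.88 ± 0.125). Just outside it were peaks in PHACTR2 (0.981 ± 0.107 to 1.96 ± 0.595), FAT3 (1.80 ± 0.502 to 3.59 ± 0.185) and N4BP2L2 (1.44 ± 0.255 to 2.87 ± 0.631).

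A check in libraries that had no part in the choice was made by applying the same rule to 3 libraries of each group and measuring the chosen peaks in the same-numbered pair left out. In the pairs 1, 2 and 3, the left-out sorbitol library was higher at 96.5%, 97.0% and 96.7% of 4800, 4848 and 4850 chosen peaks, and at least 2-fold higher at 59.7%, 60.8% and 59.6%. In pair 4 it was higher at 88.1% of 6429 chosen peaks and at least 2-fold higher at 33.1%. Over all inside peaks the left-out sorbitol library was higher at 57.05% to 63.6% and 2-fold higher at 7.76% to 13.6%. The chosen peaks thus stood above all inside peaks in each of the 4 pairs, with the smallest difference in pair 4. The 2 sets were not matched on strength, and gained peaks are weak. Over all 8 libraries, the median log2 ratio of inside peaks was 0.33 in the weakest decile and 0.03 in the strongest. The part of strength in the difference was not tested. Each pair is 1 library against 1, so these shares are descriptions.

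**Figure D2:**
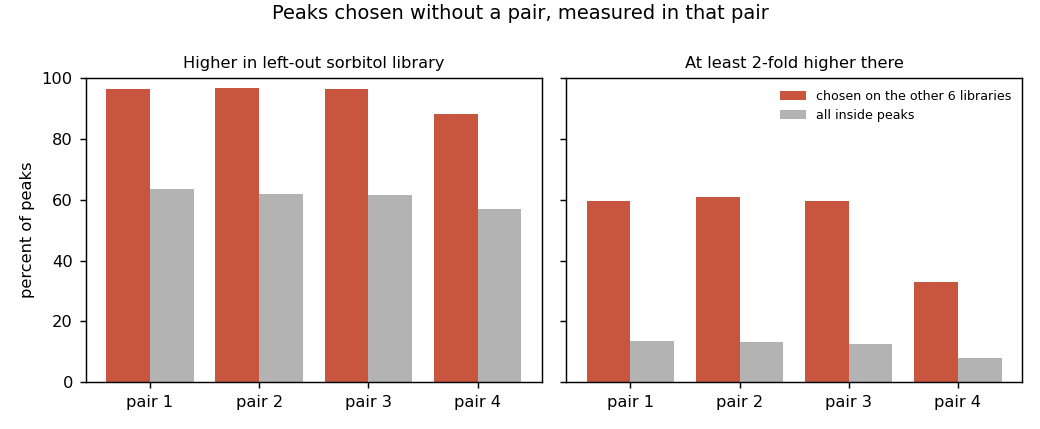
Percent of peaks higher (left) and at least 2-fold higher (right) in the left-out sorbitol library than in the left-out vehicle library, for peaks chosen on the other 6 libraries and for all inside peaks, by pair. Chosen peaks were higher at 96.5% to 97.0% in pairs 1 to 3 and at 88.1% in pair 4, against 57.05% to 63.6% of all inside peaks.

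The strongest gained inside peak lay in the long noncoding RNA gene LINC03000, at chr5:164326832-164328147, 30.1 kb from the nearest gene end. Its vehicle libraries held 24.0, 23.3, 25.9 and 23.04 CPM and its sorbitol libraries 52.8, 56.5, 52.8 and 61.2, or 24.1 ± 1.27 against 55.8 ± 4.01 (SD, n = 4). Every sorbitol library was at least 2.04 times the highest vehicle library, on 340 to 879 counts. The next by sorbitol level lay in NAALADL2 (chr3:174483804-174485080), with 19.8 to 22.1 CPM in vehicle and 37.3 to 46.9 in sorbitol. LAMA2, which encodes a laminin chain of the basement membrane, followed with 14.8 to 18.6 CPM in vehicle and 33.0 to 37.2 in sorbitol at chr6:129183486-129184754.

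EPHA7, an ephrin receptor of axon guidance, held a peak at chr6:93341774-93342916, 76.6 kb from the nearest gene end. It had 13.3, 12.9, 13.2 and 13.4 CPM in vehicle and 30.3, 28.8, 30.3 and 27.5 in sorbitol, so the spread within each group was small beside the 2.22-fold ratio. In EPHA7 as a whole, 11 of 18 inside peaks were gained. A peak in STXBP5, a syntaxin-binding protein of vesicle fusion, at chr6:147208153-147208594 had 3.81, 4.02, 4.94 and 2.91 CPM in vehicle and 13.9, 15.3, 14.5 and 14.3 in sorbitol, a ratio of 3.69. The gained peaks of TES (chr7:116222369-116223040), a protein of focal adhesions, and GOLIM4 (chr3:168091859-168092331), a Golgi membrane protein, stood at 10.2 ± 0.582 and 12.0 ± 0.915 CPM in vehicle and at 24.4 ± 2.06 and 27.8 ± 2.30 CPM in sorbitol. A peak shared by MINDY3, a deubiquitinase, and LOC124902383 (chr10:15813226-15813766) went from 2.33 ± 0.739 to 9.63 ± 1.85 CPM. One in LOC124907729 (chr2:9029450-9030434) went from 13.9 ± 0.813 to 28.7 ± 2.94 CPM.

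To see what the gained inside peaks share, they were set beside the other inside peaks, and beside other inside peaks matched on mean count. Their median width was 271 bp against 389 bp, but 258 bp in matched peaks. They lay deeper in genes, at a median of 19.8 kb from the nearest gene end against 13.8 kb and 15.7 kb in matched peaks, and in longer genes, with a median of 197000 bp against 145200 bp and 154900 bp. The share gained went with peak strength, from 24.0% in the weakest decile of inside peaks to 0.485% in the strongest. It went from 4.24% at 1 to 2 kb from a gene end to 11.7% beyond 100 kb, where peak strength alone gave 5.71% and 8.56%. By length of the gene it was 4.22% under 50 kb, 8.72% at 200 to 500 kb, 9.38% at 500 kb to 1 Mb and 8.96% over 1 Mb, where strength gave 6.23%, 7.58%, 7.86% and 7.98%. Without both replicate 4 libraries the shares by distance ran from 5.83% to 15.8%. With an offset that takes out the average trend of each library with strength, they ran from 1.84% to 4.49%. No share expected from strength was computed with this offset. In the same 4 length classes that offset gave 1.57%, 3.604%, 3.63% and 3.21%.

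**Figure D3:**
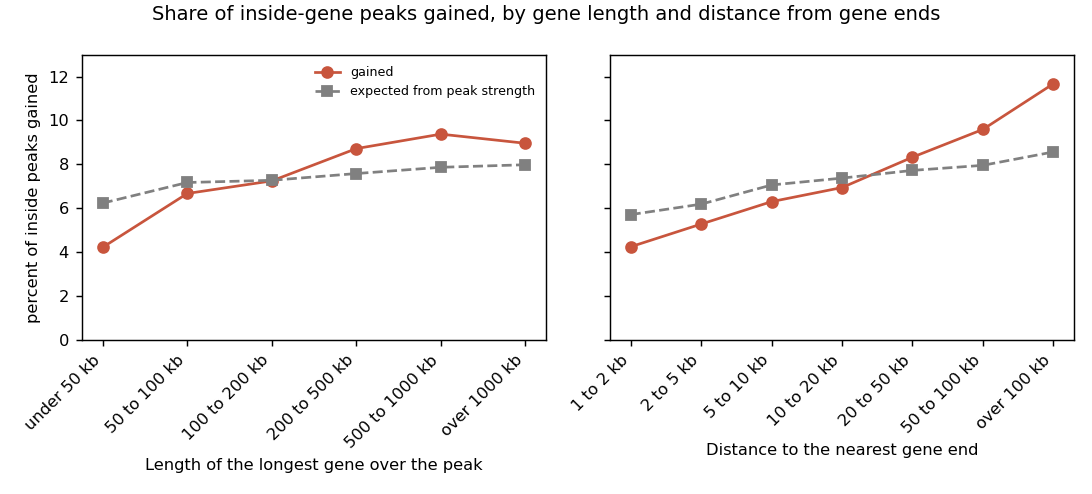
Percent of inside peaks gained by the length of the longest gene over the peak (left) and by distance to the nearest gene end (right), with the percent expected if peaks were gained only by their strength decile. The share reaches 11.7% beyond 100 kb from a gene end, above the expected 8.56%, and lies below expectation near gene ends.

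In the 383 host genes with a known strand, 565 of 3366 inside peaks (16.8%) in the first of 3 stretches of equal length from the start were gained, 652 of 3189 (20.5%) in the middle one and 721 of 3371 (21.4%) in the last. By chromosome the share was highest on 13 (296 of 2549, 11.6%), 6 (573 of 5187, 11.05%), 4 (10.4%) and 3 (9.56%). It was lowest on the gene-dense chromosomes 17 (18 of 1802, 0.9989%) and 19 (13 of 1325, 0.981%). Gained peaks also lay beside each other: 1206 of the 4612 (26.2%) had a gained peak as the inside peak directly before or after, against 7312 of the other inside peaks (12.3%). Neighbouring peaks share a region, so these are not separate events.

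Gained inside peaks were then counted by gene. Of 16559 genes with an inside peak, 2716 held at least 1 gained peak, 1817 exactly 1, 436 exactly 2 and 463 held 3 or more. These 463 host genes held 2219 of the 4612 gained peaks (48.1%); 409 were protein-coding, 52 were long noncoding RNA genes and 2 were of other kinds. A peak over several genes was counted in each, which touched 353 gained peaks. Host genes had a median length of 278 kb and 20 inside peaks, against 43.3 kb and 2 for all genes with an inside peak. The share of genes with 3 or more gained peaks went from 0.0549% under 50 kb to 15.5% at 200 to 500 kb and 33.3% over 1 Mb.

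Since a long gene has more inside peaks and so more chances, each count was set beside 2 expectations. The first was the gene's number of inside peaks times the share of 7.22%, and the second also used the share in peaks of the same strength decile and gene length class. Of the 463 genes, 352 had at least 2 times the first expectation and 5 were at or below it, and 288 had at least 2 times the second. A gene with few inside peaks must exceed its expectation to reach 3, so these counts describe the choice. Conversely, 97 of 500 genes with 20 or more inside peaks had none gained. Among them were WWOX (0 of 51), CAMTA1 (0 of 40), RERE (0 of 40) and FAT3 (0 of 37). From peak number 3.68, 2.89, 2.89 and 2.67 gained peaks were expected in these genes. How many of the 97 the share of 7.22% alone would give was not computed.

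PCDH9, a protocadherin of cell adhesion in the nervous system at chr13:66302834-67230336, held the most gained peaks, 34 of its 181 inside peaks (18.8%), where 13.1 were expected from peak number and 8.51 from strength and length. Summed over all 181 peaks it held 896, 890, 934 and 974 CPM in vehicle and 1494, 1409, 1487 and 1463 in sorbitol. The groups do not overlap, but these sums include the 34 gained peaks, which the rule had separated. A ratio above 1 was found in 180 of the 181 peaks. Of the 34, 7 also lay in the overlapping gene LOC105370247. The peaks of PCDH9 outside the 34 had a summed ratio of 1.53. Its most widely separated peak, at chr13:66743947-66744375, had 0.788, 1.27, 1.26 and 1.15 CPM in vehicle and 3.91, 3.504, 3.03 and 4.11 in sorbitol. The count in PCDH9 depended on 1 library: without vehicle 4, 58 of its peaks met the rule, and without both replicate 4 libraries 60.

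LOC105370246, a long noncoding RNA gene 26.3 kb from PCDH9 at chr13:67256594-67326132, had 10 of 13 inside peaks gained (76.9%), against 0.938 expected from peak number. Its summed level was 24.2, 23.2, 22.6 and 34.4 CPM in vehicle and 56.4, 55.3, 63.9 and 55.4 in sorbitol. Vehicle 4 stood above the other vehicle libraries and still below every sorbitol library, in a sum that includes the 10 gained peaks. DACH1, a repressor of transcription in eye and limb development on the same chromosome, had 20 of 76 gained, with sums of 389 to 396 CPM in vehicle and 612 to 624 in sorbitol. GPC5, a heparan sulfate proteoglycan of the cell surface, had 20 of 124, with 351 to 386 CPM in vehicle and 483 to 508 in sorbitol. For GPC5 the count was 1.47 times the expectation from strength and length, against 4.66 for DACH1 and 4.00 for PCDH9.

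On chromosome 6, NKAIN2, a membrane protein that binds the sodium pump's beta subunit, had 25 of 91 inside peaks gained (27.5%), with summed levels of 290 to 300 CPM in vehicle and 442 to 480 in sorbitol. Its most widely separated peak, at chr6:124193403-124193609, had 0.197, 0.517, 0.555 and 0.474 CPM in vehicle and 1.30, 2.07, 1.56 and 2.02 in sorbitol, on 3 to 29 counts. PTPRK, a receptor tyrosine phosphatase of cell contacts, had 14 of 44, with 132 to 150 CPM in vehicle and 190 to 210 in sorbitol over its inside peaks. Of these 14, 5 also lay in the nested LOC124900216 (5 of 8). DST, a linker between cytoskeletal filaments, had 13 of 58, and UTRN, the dystrophin relative utrophin, 13 of 47. Summed levels in UTRN were 157 to 174 CPM in vehicle and 228 to 244 in sorbitol, and in DST 203 to 215 and 266 to 283.

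ROBO1, a receptor of Slit ligands in axon guidance, had 25 of 122 inside peaks gained (20.5%) at chr3:78597239-79767998, and its summed level was 469 to 485 CPM in vehicle and 665 to 683 in sorbitol. TBC1D5, a regulator of Rab7 and of the retromer complex in endosomal sorting, had 19 of 50 (38%) at chr3:17157162-17742631. The 50 peaks of TBC1D5 summed to 145, 150, 144 and 140 CPM in vehicle and 241, 244, 256 and 243 in sorbitol, and leaving out any 1 library gave 18 to 20 gained peaks. One peak in TBC1D5, at chr3:17400599-17401054, had 0.460, 0.862, 1.01 and 1.02 CPM in vehicle and 3.82, 3.35, 3.47 and 3.07 in sorbitol. LINC03000 had 20 of 53 gained (37.7%), 5.23 times the expectation from peak number and 3.55 times that from strength and length. CCDC178, a coiled-coil protein, had 14 of 60 on chromosome 18, and LRRC7, a scaffold of synapses, 13 of 43 on chromosome 1. The sums of these 3 genes, which include their gained peaks, did not overlap either. LINC03000 had 172 to 186 CPM in vehicle and 286 to 308 in sorbitol. CCDC178 had 122 to 138 and 192 to 207, and LRRC7 89.5 to 102 and 124 to 137.

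Separation of a peak was measured as its lowest sorbitol CPM over its highest vehicle CPM, which a low vehicle level raises. In PCDH9, NKAIN2, ROBO1, DACH1, LINC03000, GPC5, TBC1D5 and CCDC178 the most widely separated peak was weak in vehicle cells. In ROBO1 (chr3:78655275-78655533) it had 13, 9, 20 and 18 counts in vehicle and 32, 41, 42 and 42 in sorbitol, or 0.8999 ± 0.296 and 3.15 ± 0.385 CPM (SD, n = 4). In DACH1 (chr13:71695675-71695967) it had 0.788, 1.09, 1.11 and 0.745 CPM in vehicle and 2.86, 4.14, 2.60 and 3.27 in sorbitol. The corresponding ratios were 3.503 for ROBO1 and 3.45 for DACH1, and both rest on 9 to 52 counts a library. The one in GPC5 (chr13:92043869-92044095) had 0.197 to 0.632 CPM in vehicle and 1.53 to 2.26 in sorbitol, and that in CCDC178 (chr18:33070264-33070586) 0.706 to 0.862 and 2.09 to 2.78. A second LINC03000 peak (chr5:164355373-164355605) had 1.051, 2.18, 2.07 and 2.03 CPM in vehicle, where vehicle 1 was lowest, and 5.73, 6.53, 7.63 and 6.13 in sorbitol.

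In all of these genes the rest of the inside peaks was higher after sorbitol as well. Summed over the inside peaks that the rule did not take, the ratio was 1.53 in PCDH9, 1.46 in NKAIN2, 1.35 in ROBO1, 1.49 in DACH1, 1.26 in GPC5, 1.47 in TBC1D5 and 1.20 in DST. Over all genes such peaks took 27.6% to 28.2% of vehicle counts and 29.1% to 29.6% of sorbitol counts. The median log2 ratio of all inside peaks was 0.38 on chromosome 13, 0.30 on 6 and 0.24 on 3. The part of this wider rise in the ratios of these genes was not tested. The map of ratios along PCDH9, NKAIN2, TBC1D5 and LOC105370246 shows gained peaks spread over most of each gene body. The counts in these genes depended on how peak strength was treated: with an offset that follows strength, the rule took 20 peaks in PCDH9, 14 in NKAIN2, 10 in ROBO1, 15 in DACH1, 6 in GPC5 and 11 in TBC1D5. With the same offset it took 11 in LINC03000, 8 in UTRN, 7 in DST, 7 in LRRC7, 5 in CCDC178 and 3 in PTPRK. In LOC124900216, nested in PTPRK, it took 0. These ratios come from the libraries that chose the genes and are descriptions.

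**Figure D4:**
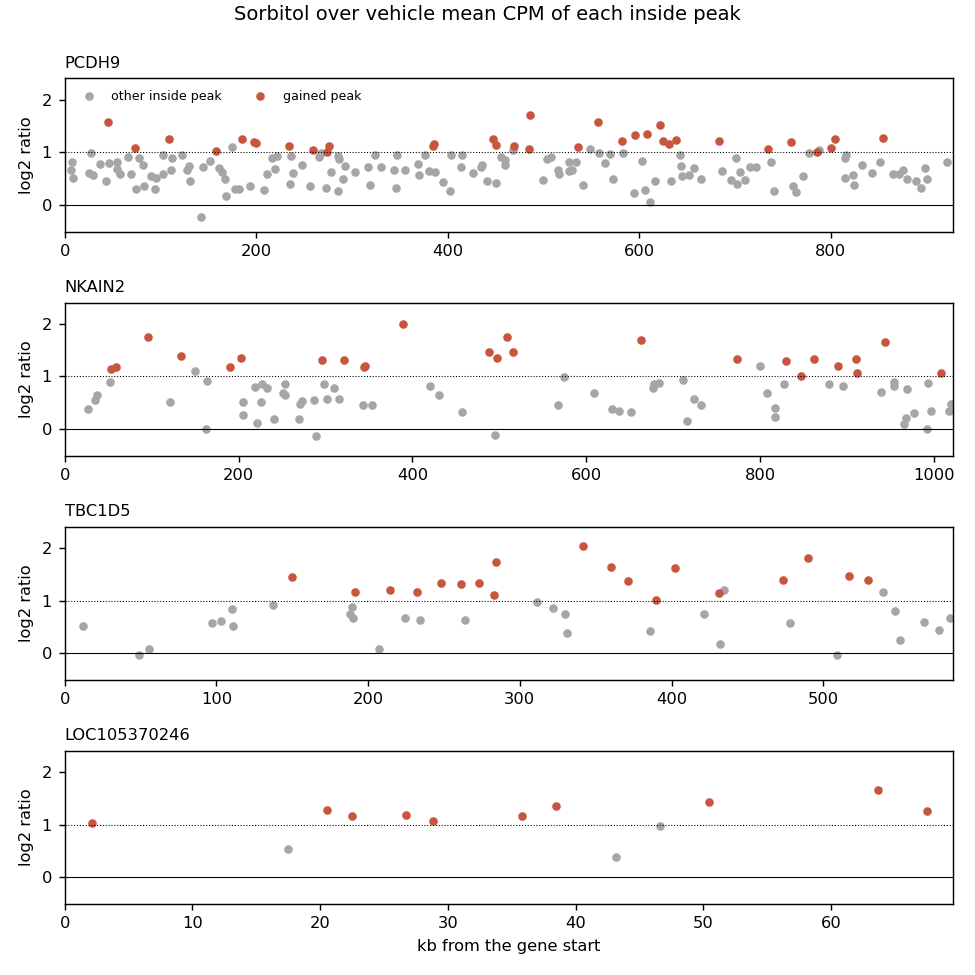
Log2 ratio of sorbitol to vehicle mean CPM of each inside peak, by distance from the gene start in kb, in PCDH9, NKAIN2, TBC1D5 and LOC105370246. Gained peaks lie along most of each gene body, though not in the first stretch of TBC1D5, and 180 of the 181 peaks of PCDH9 lie above 0; a gray point above the dotted 2-fold line had groups that overlapped.

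**Figure D5:**
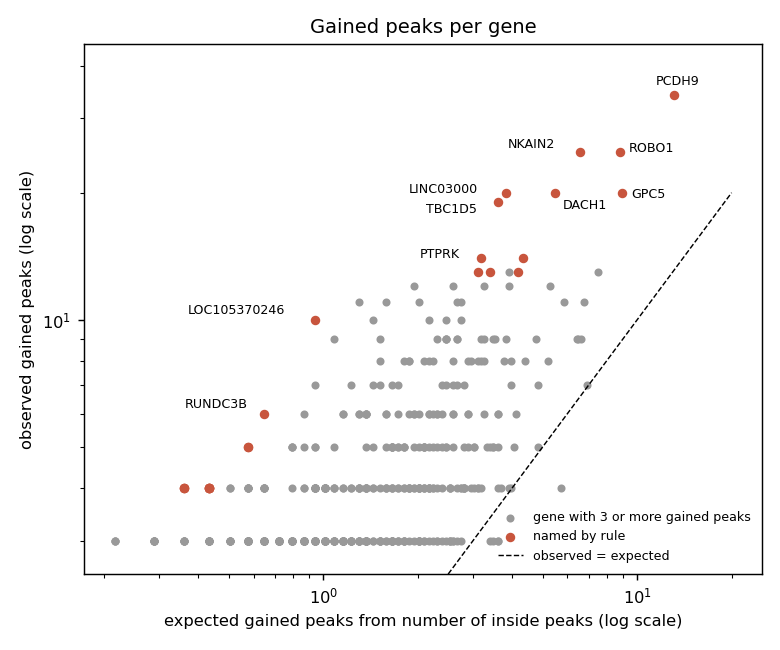
Gained peaks of each of the 463 genes against the number expected from its inside peaks, both on log scales, with the 24 genes of the naming rule in red. PCDH9 has 34 against 13.1 expected, and 5 genes lie on or below the line of equality.

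By share, the leading genes had few inside peaks. ITGAV, the integrin alpha-V subunit, had 4 of 5 gained, with sums of 7.62, 9.03, 8.42 and 7.59 CPM in vehicle and 17.5, 17.4, 19.4 and 17.7 in sorbitol. RUNDC3B had 6 of 9, with 10.4 to 12.8 CPM in vehicle and 21.96 to 25.2 in sorbitol. LOC124904473 had 4 of 5, all of which also lay in RGS21, a regulator of G protein signaling. At 4 of 6 were GLRB (the glycine receptor beta subunit), IFT80 (transport in cilia, its 4 peaks shared with TRIM59-IFT80), CENPW (a centromere protein), AGBL3 (a carboxypeptidase acting on tubulin, 2 of its peaks shared with CYREN) and KANSL1L. TRAPPC8, a subunit of a vesicle tethering complex, had 5 of 8, but 3 without vehicle 3, sorbitol 1 or sorbitol 3. The summed levels of these 6 genes did not overlap between groups, but they include the gained peaks, which the rule had separated. They ran from 4.83 to 8.13 CPM in vehicle and 10.7 to 16.6 in sorbitol for AGBL3, and from 19.2 to 22.8 and 29.9 to 36.1 for TRAPPC8.

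Peaks at the ends of the host genes were then examined, since the rule leaves them out, to see whether starts and far ends moved with the gene body. The edgeR quasi-likelihood test was fitted to the whole table, with p-values adjusted by the Benjamini-Hochberg method and a threshold of 0.05. It called 16.0% of all tested peaks higher and 13.1% lower after sorbitol. Of 525 end peaks of host genes, 96 rose (18.3%) and 67 fell (12.8%), and the median log2 fold change was 0.02. The 24416 tested autosomal gene end peaks gave 8.74% that rose and 33.1% that fell, and their median was -0.17. The host genes were chosen in the same libraries, so their end peaks are not an independent sample and the difference from other genes was not tested. At the starts of host genes 60 of 381 peaks rose (15.8%) and 49 fell (12.9%). Of 13863 peaks at the starts of any gene with a known strand, 7.08% rose and 39.4% fell. At the far ends of host genes 21 of 66 rose (31.8%) and 4 fell (6.06%). Of 4550 peaks at the far ends of any gene with a known strand, 8.57% rose and 32.2% fell.

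The split of calls at host gene ends moved with the scaling and with the replicate 4 libraries. With library totals alone 145 rose and 33 fell, where 12.6% of all gene end peaks rose and 26.2% fell. With an offset that follows peak strength 218 rose and 17 fell, against 13.5% and 25.2% of all gene end peaks. Without sorbitol 4 the split turned to 68 higher and 91 lower (7.00% and 34.3% of all gene end peaks), without both replicate 4 libraries to 71 and 103, and without sorbitol 1 42 were lower. Without both replicate 4 libraries 7.44% of all gene end peaks rose and 36.5% fell.

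As a share of all counts, host gene end peaks held 1.92%, 1.94%, 2.03% and 1.95% of the vehicle libraries and 1.94%, 2.08%, 2.03% and 2.198% of the sorbitol libraries. The groups overlapped, and the means of 1.96% ± 0.0495 and 2.06% ± 0.107 (SD, n = 4) did not differ past the threshold (exact two-sided permutation test, p = 0.2). As a share of the counts at all gene ends, the means were 3.91% ± 0.123 and 4.44% ± 0.123, and every sorbitol library was above every vehicle library (exact permutation p = 0.0286, n = 4, the smallest this design can give). Since these libraries also chose the genes, neither p is independent of the choice. Gene ends as a whole took 49.0% to 51.0% of vehicle and 45.3% to 47.9% of sorbitol counts.

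Of the 24 genes taken by the naming rule, 21 had an end peak, and by the edgeR test 1 rose, 2 fell and 18 did not pass the threshold. The start peak of UTRN (chr6:144284633-144287447) had 117, 115, 125 and 116 CPM in vehicle and 135, 154, 154 and 157 in sorbitol, and it rose by a log2 fold change of 0.26 ± 0.07 (SE, adjusted p = 0.00485). That of AGBL3 (chr7:134986192-134987259) had 59.7, 60.8, 64.0 and 58.6 CPM in vehicle and 48.3, 46.4, 51.9 and 55.9 in sorbitol, and it fell (log2 fold change -0.35 ± 0.08, adjusted p = 0.000839). The gained peaks of AGBL3 had been chosen for their rise, so the opposite direction of its start peak is a description. A fall was common at starts, with 39.4% of those of any gene with a known strand.

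The start peak of PCDH9, the strongest of those named, had 207, 217, 236 and 224 CPM in vehicle and 210, 224, 224 and 247 in sorbitol, and the groups overlapped (log2 fold change -0.05 ± 0.07, edgeR adjusted p = 0.683). The start peaks of NKAIN2 (0.20 ± 0.08, adjusted p = 0.0584), GLRB (0.23 ± 0.10, adjusted p = 0.0632) and RUNDC3B (0.19 ± 0.08, adjusted p = 0.0735) came nearest to the threshold among those that missed it. For ROBO1, DACH1, TBC1D5, PTPRK and DST the log2 fold change lay between -0.07 and -0.03. A p that misses the threshold does not show that these starts stayed the same.

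Promoter sequences were found for 383 of the 463 host genes. Their median GC content was 62.3% against 58.3% over 26246 autosomal promoters, and among protein-coding genes 63.2% (348) against 63.0% (15101). The letters TGANTCA (AP-1), counted on either strand, were in 5.74% of host promoters and 7.73% of all, and in 5.17% and 5.70% of the protein-coding ones. For TGACGTCA (CRE) the shares were 2.87% and 2.00%, for GGAATG (TEAD) 13.1% and 14.04%, and for TGGAAA (NFAT) 17.2% and 21.1%. Among protein-coding genes they were 3.16% and 2.65% for CRE, 13.5% and 11.7% for TEAD, and 16.4% and 17.5% for NFAT, so the order for TEAD turned. None of the 4 motifs contains another, and a match is a description of the letters only.

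The gained share was last counted in gene groups chosen by symbol, and read beside the 7.22% of all inside peaks and the share expected from the strength of a group's peaks and the length of its genes. Cadherins and protocadherins had 56 of 430 inside peaks gained (13.02%, expected 7.17%), of which PCDH9 held 34. Without PCDH9 the cadherin group had 22 of 249 (8.84%), with 5 each in PCDH7, CDH12 and PCDH15. The median log2 ratio over all peaks was 0.54 in the cadherin group and 0.29 without PCDH9, against 0.15 over all inside peaks. Osmotic genes, such as transporters and kinases of cell volume control, had 7 of 69 (10.1%, expected 6.41%), and none of them held 3 or more. With a mean of at least 50 counts they had 0 of 28, against 1.45% of all inside peaks. With the offset that follows strength they had 3 of 69 (4.35%), against 2.99%. Receptor tyrosine phosphatases had 32 of 293 (10.9%, expected 9.003%), led by PTPRK with 14 and PTPRN2 with 7. Glutamate receptors and neurexins had 31 of 325 (9.54%, expected 8.75%). Ion channels had 78 of 879 (8.87%, expected 8.402%), with 12 in the potassium channel gene KCNT2 and 9 each in CACNA2D1 and RYR2.

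Solute carriers had 80 of 1090 gained (7.34%, expected 7.36%). Phosphodiesterases (28 of 394, 7.11%) and common fragile site genes (47 of 693, 6.78%) were near the 7.22% of all inside peaks but below their expected 8.69% and 8.82%. Zinc finger genes had 29 of 507 (5.72%, expected 6.85%), YAP target genes 5 of 148 (3.38%, expected 6.34%) and catenins and junction scaffolds 5 of 259 (1.93%, expected 8.38%). The median log2 ratio over all their peaks was 0.02, 0.19 and 0.13 in this order, against 0.15 over all inside peaks. By that measure the YAP target genes did not lie below all inside peaks. No gene of the catenin group had 3 gained peaks, though MAGI1 had 57 inside peaks. With the offset that follows peak strength, 2.99% of all inside peaks were gained, and receptor tyrosine phosphatases (2.39%), glutamate receptors and neurexins (2.77%) and solute carriers (2.84%) lay below that share, whereas cadherins and protocadherins had 6.98%, or 4.02% without PCDH9. By kind of gene the share was 7.40% in protein-coding genes, 6.83% in long noncoding RNA genes and 5.21% in others. No test was made of these groups, and their members share genes and regions.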

How the data were processed

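Chromatin accessibility was measured by Omni-ATAC-seq in 8 libraries, 4 a group, with paired reads of 75 bp per the labels' protocols. The authors deposited 1 table of raw counts per peak. Per the submitters' processing notes the tools included Trim Galore 0.6.10, BWA 0.7.17, SAMtools 1.22, Picard, MACS2 2.2.9.1, bedtools and DESeq2, with build GRCh38. Their roles, how peaks were called and merged, and whether reads or fragments were counted are not given in the sources used here. Peak starts were taken as counted from 0 and are printed from 1. All columns were mapped to samples by name.

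Peaks were assigned to genes with the RefSeq gene table of GRCh38.p14, and promoter sequences come from RefSeq on the same build. That table has no exons here, so exon and intron positions were not used here. The members, gene groups and tests were chosen with earlier results of these data known. Peaks were tested with edgeR 4.0.16 in R 4.3.3 (TMM factors, filterByExpr with a minimum count of 10 and total of 15, which left 129487 peaks, treatment as the only term), and the script was tested on simulated data. Alternatives were DESeq2 1.42.0, other scalings, fold limits and count minimums, a 5 kb distance to gene ends, protein-coding genes alone, a replicate block and leaving out each library. Counts of the gained peaks in single libraries are low, and PCR reads without molecular identifiers are not independent molecules.

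Replicate numbers are shared by both groups, but the deviations of same-numbered libraries correlated at -0.0652 to 0.0098, so they were not treated as pairs. Named genes are the 12 hosts with most gained peaks and the 12 with the highest gained share among those with 5 or more inside peaks, with ties in share settled by the number of gained peaks and then, as ties in number, by gained peaks per 100 kb. Genes with equal counts, such as ATRNL1, CNTNAP2 and LRP1B at 13, or an equal share, such as SCN9A, therefore lie outside the 12. Named peaks are the 8 with the smallest edgeR p (for order only), the 5 with the highest sorbitol mean, the most widely separated peak of each of the first 8 named genes, and 3 on either side of the 2-fold limit. Other genes are named from the gene groups, or were chosen after their values were seen (genes with many inside peaks and none gained, and those in the closing observations). Some items that these rules take are not reported here.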

Additional observations from a re-analysis of the deposited data

Results flagged for a closer look

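Among 142 groups of 4 values behind the named peaks and genes, 8 had 1 library far from the other 3, where chance alone gives about 1 in 20, or 7.1. In the LINC03000 peak that starts at 164355373 on chromosome 5, the value of vehicle 1 was 1.051 CPM, where vehicle libraries 2 to 4 had 2.03 to 2.18. At the start of CCDC178 vehicle 1 had 40.8 CPM against 35.6 to 35.9, and at the start of RUNDC3B vehicle 2 had 53.8 CPM against 61.1 to 62.2. At the start of DST sorbitol 4 had 63.7 CPM against 53.2 to 55.0 in the other sorbitol libraries, and at the start of UTRN, which rose, sorbitol 1 had 134.5 CPM against 154.2 to 157.4. Summed over inside peaks, ITGAV had 19.4 CPM in sorbitol 3 against 17.4 to 17.7. The sum in LOC105370246 was 34.4 CPM in vehicle 4 against 22.6 to 24.2, and 63.9 CPM in sorbitol 3 against 55.3 to 56.4.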

How the results depend on the processing

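The number of gained inside peaks was 4612, and 1909 with a loess offset, 9600 at 1.5-fold, 672 at 3-fold and 352 with a mean of at least 50 counts. It lay between 4466 and 5857 with 1 library left out. All 3659 peaks taken after TMM scaling and 1903 of the 1909 taken with the loess offset were among the 4612. Genes with 3 or more numbered 463, and 150, 1025, 16 and 15 under the same 4 settings, or 444 to 596 with 1 library left out. Host gene end peaks called higher numbered 96, with 145 for library totals alone and 218 for the loess offset, and those lower 67, with 33, 17 and, at a mean of at least 50 counts, 40. Leaving out 1 library gave 68 to 97 higher and 42 to 91 lower. Without both replicate 4 libraries, a setting chosen after seeing the data, 6429 peaks were gained, 670 genes held 3 or more, and 103 host end peaks were lower. The share of counts at host gene ends differed by 0.0969 percentage points (exact p = 0.2), by 0.0511 to 0.137 with 1 library left out, and by 0.529 (exact p = 0.0286) as a share of gene end counts. Without both replicate 4 libraries the share of all counts differed by 0.04825 (exact permutation p = 0.5). With the replicate number as a block 136 host end peaks were called by edgeR in place of 163, and a paired sign flip of the share gave an exact p of 0.25 (n = 4 pairs). The same-numbered libraries are not known to be pairs. In the 24 genes of the naming rule, 80 counts of gained peaks moved by over 1.5 times under another setting and 348 did not. Most of the 80 lay at the 1.5-fold and 3-fold limits, the minimum of 50 counts and the loess offset. At the 3-fold limit, the minimum of 50 counts and the loess offset, the counts of most of the 24 genes moved. Few counts moved when 1 library was left out, and the cause was not tested. Weak peaks limit the precision: under 10 counts were found in the lowest library of 2081 gained peaks.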

Other observations

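The gained inside peaks formed 401 stretches of 2 consecutive inside peaks, 86 of 3, 24 of 4, 4 of 5 and 5 of 6. The stretches of 6 lay in LOC105370246 (18.2 kb, ratios 2.08 to 2.54), in ATRNL1 (50.1 kb, 2.02 to 3.10), in KCNT2, a sodium-activated potassium channel (52.2 kb, 2.53 to 3.16), in CADPS2, a factor of vesicle release (80.5 kb, 2.13 to 3.10), and in the sodium channel gene SCN9A together with SCN1A-AS1 (97.6 kb, 2.37 to 3.84). Stretches of 5 lay in IL12RB2, PTPRK with LOC124900216, FBXL2 and STXBP5. All are descriptions of peaks that the rule took.

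Stricter limits were also counted. Of the 16 genes with 3 or more peaks at 3-fold or above, NKAIN2, ROBO1 and TBC1D5 had 5 each, and CNTNAP2, EPB41L2, IL12RB2, UBE2E2, DACH1 and ITGAV were among those with 4. Of the 15 with 3 or more gained peaks of at least 50 counts on average, PCDH9 had 12, DACH1 7, and LINC03000, SEMA3C, TBC1D5 and VAV3 4 each, and LAMA4, LRP1B, PCDH7 and PRSS12 were among those with 3. These genes were chosen after their values were seen.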
